A study of Homo sapiens with 12 samples.

Results

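YAP1 and WWTR1, the paired coactivators of the Hippo pathway, were followed with 8 genes that lie in or downstream of it across 12 poly(A) RNA libraries of ARPE-19 cells. The other genes were LATS2, a kinase of the pathway, AJUBA and AMOTL2, which encode cytoplasmic scaffold proteins, the CCN genes CCN1, CCN2, CCN3 and CCN5, and ANKRD1. The set was drawn up with earlier results of these data known. Each member was then found by name, as the line of the deposited table that carries its gene symbol, and all 10 of 10 symbols were found, on 1 line each, among 40591 lines with a symbol and 60605 in all. All 10 passed the filter on low counts that left 15179 genes for testing.

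ARPE-19 is an established human cell line derived from the retinal pigment epithelium, the pigmented layer that supports the photoreceptors. The libraries fall into 4 groups of 3. GFP, GSTA4 and OSK are named for the open reading frame that stable ARPE-19 lines carried and expressed for 4 days, and WT is the ARPE-19 group named for no reading frame. GFP, a fluorescent protein, serves as the reference for the other introduced frames, GSTA4 encodes a glutathione transferase that detoxifies products of lipid peroxidation, and OSK is read here as the reprogramming factors POU5F1 (OCT4), SOX2 and KLF4. The labels give no promoter, no dose, no culture condition for WT and no statement that the 3 libraries of a group were separate cultures or more than 1 stable line. The p-values therefore measure the spread between these libraries only, which may be technical, and an effect of the reading frame and a difference between the lines cannot be told apart.

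In the Hippo pathway, the kinases STK3 and STK4 activate LATS1 and LATS2, which phosphorylate the coactivator proteins YAP (from YAP1) and TAZ (from WWTR1) and so hold them in the cytoplasm or mark them for breakdown. Unphosphorylated YAP and TAZ enter the nucleus and, lacking a DNA-binding domain, act through TEAD transcription factors. CCN1, CCN2 and ANKRD1 are their most used target genes, AMOTL2, AJUBA and LATS2 are targets that also bind or restrain the pathway, and CCN proteins are secreted into the matrix around the cell. In retinal pigment epithelium this pathway is known for its part in cell spreading, proliferation and the loss of epithelial form. RNA levels say nothing about the phosphorylation or location of the proteins.

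TEAD factors bind DNA with a core of the 6 letters GGAATG, read as CATTCC on the other strand, so the 250 bases before each annotated start were searched for that core on both strands. CCN3 was left out of this search. Of the other genes, 7 had entries in the RefSeq promoter table (build GRCh38.p14), with 10 starts in all, and 5 of those 10 starts held the core. Across all 35116 promoters of the table searched over the same length, 11.9% held at least 1 core, 0.94% at least 2 and 0.0826% (29 promoters) at least 3. CCN2 and ANKRD1 were the 2 of the 10 genes with the widest spread of levels between groups. Their promoters are shown for that reason and because they held the most cores among the 10 starts, 3 and 2. Both are written 5′ to 3′ on the strand of the gene, which is the minus strand in each case. The capitals mark the core. The CCN2 stretch is chr6:131951373-131951622 and the ANKRD1 stretch is chr10:90921088-90921337.
CCN2: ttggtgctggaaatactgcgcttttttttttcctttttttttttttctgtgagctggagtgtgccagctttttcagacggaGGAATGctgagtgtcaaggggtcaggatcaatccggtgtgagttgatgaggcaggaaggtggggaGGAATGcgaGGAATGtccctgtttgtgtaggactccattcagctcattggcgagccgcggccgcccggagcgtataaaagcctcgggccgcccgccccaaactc
ANKRD1: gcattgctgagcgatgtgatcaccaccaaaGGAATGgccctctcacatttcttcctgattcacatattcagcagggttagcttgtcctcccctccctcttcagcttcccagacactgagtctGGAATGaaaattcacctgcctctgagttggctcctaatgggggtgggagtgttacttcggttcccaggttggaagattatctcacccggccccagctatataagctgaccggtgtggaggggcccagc

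The cores of CCN2 began 169, 104 and 95 bases before the start, and those of ANKRD1 began 220 and 128 bases before it. YAP1 held 1 core that began 162 bases before its start, AJUBA 1 at 59 bases before the second of its 2 starts, and AMOTL2 1 on the other strand, at 69 bases before the second of its 2 starts. The letters were not found in the windows of WWTR1 and LATS2. A match to these letters is a description of the sequence, not evidence of binding.

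**Figure D1:**
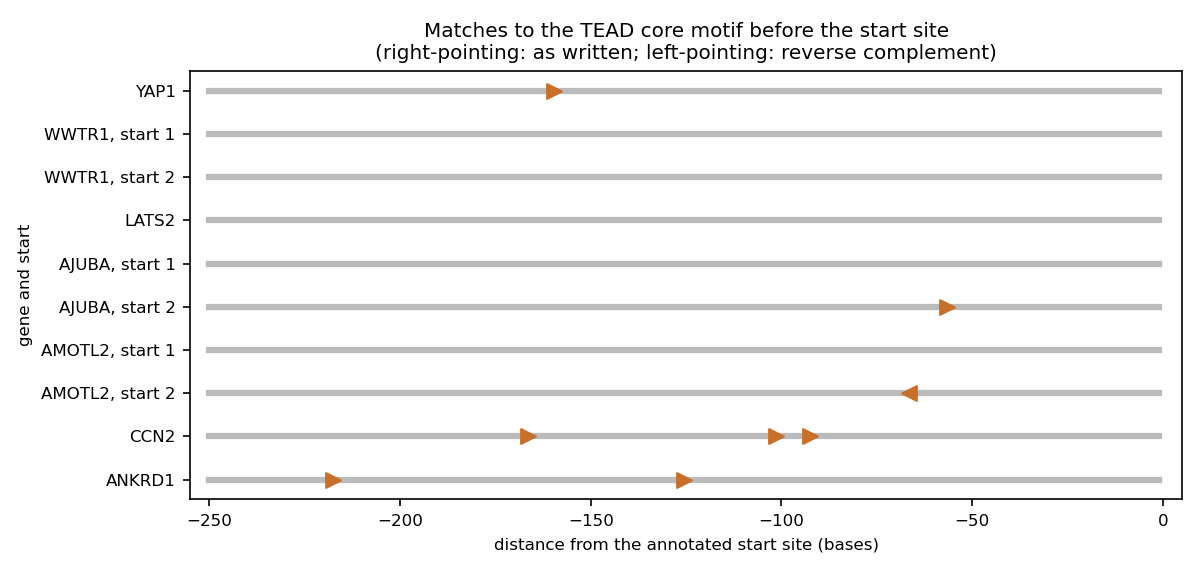
Positions of the TEAD core in the 250 bases before each annotated start of the 7 genes searched that had a promoter entry (CCN3 was not searched). The x axis is the distance from the start in bases and each row is 1 start. CCN2 holds 3 cores and ANKRD1 holds 2, and 5 of the 10 rows hold none.

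The deposited values are whole read counts, and totals ran from 12630675 (GFP replicate 1) to 17045454 reads (WT replicate 3). Levels are given as CPM (a gene's reads relative to the library's total, after TMM scaling of that total), and the floor of 3 reads that a count of 0 allows lay between 0.177 and 0.228 CPM, for counting error only. The introduced frames matched the labels: GSTA4 stood at 415 ± 17.6 CPM (SD, n = 3) in its own group against means of 5.46 to 20.2 in the others, and in OSK the means were 778 CPM for POU5F1, 627 for SOX2 and 927 for KLF4, against at most 1.57 elsewhere. WT replicate 1 stood apart: per degree of freedom, the chi-square of its counts against the other WT libraries was 13.8 and 16.0, against 2.501 between those 2 and 2.56 to 6.94 for pairs within the other groups. GFP replicate 1 had reads on 27349 genes, against 19488 to 22073 in the other libraries. Results that rest on either library are given with and without it.

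Of the defining markers of retinal pigment epithelium, RPE65 (at most 0.640 CPM) and TTR (at most 0.271) were near or under the floor, while MITF ran from 141 to 253 CPM and the simple-epithelial keratin KRT8 from 478 to 1469. Of 5 epithelial markers 3 passed, and the list summed to 1507 to 1970 CPM for WT, 1101 to 1258 for GFP, 954 to 995 for GSTA4 and 697 to 789 for OSK. All 3 were lower in OSK than in GFP, and all 3 were below WT in both GSTA4 and OSK. For CDH1, the epithelial cadherin, the GFP reference was itself raised. Its GFP libraries read 11.5 to 20.2 CPM (mean 16.0), while those of WT read only 1.99 to 5.07 (mean 3.26). Tested against GFP, CDH1 was lower with GSTA4 (mean 0.215, adjusted p = 2.11e-09) and with OSK (mean 0.525, adjusted p = 2.95e-09). The part of these epithelial changes in the results was not tested. The summed level of 14 pigment epithelium markers, of which 9 were tested, ran from 688 to 917 CPM in the WT libraries and from 1101 to 1322 for GFP, 576 to 689 for GSTA4 and 667 to 703 for OSK. Single markers went both ways. In GSTA4 against WT 3 of the 9 were higher and 4 lower, where 19.7% and 19% of all tested genes were. Against GFP, 1 was higher and 7 lower in GSTA4 (14.7% and 14.6% of all genes). LRAT had a mean of 14.3 CPM in GSTA4, against 3.88 in GFP and 1.05 in WT. Of 8 fibroblast markers, PDGFRB and COL1A1 alone passed the filter, and the list summed to 766 to 787 CPM for WT, 708 to 775 for GFP, 528 to 557 for GSTA4 and 338 to 396 for OSK. Of 5 endothelial markers, KDR and VWF passed, and the list summed to 70.9 to 94.4 CPM for WT, 58.6 to 73.1 for GFP, 36.3 to 38.6 for GSTA4 and 23.6 to 26.6 for OSK. Of 6 immune markers none passed, with a summed level of at most 1.37 CPM. Of 7 pluripotency markers, 2 passed the filter, and the list, which holds introduced factors, summed to 1385 to 1441 CPM for OSK and at most 2.20 elsewhere. Proliferation genes also moved with the groups. Their summed level was 84.4 to 100.2 CPM for WT, 314 to 345 for GFP, 235 to 243 for GSTA4 and 647 to 787 for OSK, so that every comparison below also sets groups of different proliferation level against each other, and the part of proliferation in the results was not tested.

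Every one of the 10 genes differed among the 4 groups (edgeR F test, adjusted p under 0.05), where 66.9% of all tested genes did, and 78.1% of those with a mean of at least 10 CPM. In GFP against WT, 2 genes were higher and 5 lower, against 11% and 11.2% of all tested genes. In GSTA4 against GFP, 3 were higher and 2 lower, with 14.7% and 14.6% of all genes called in those directions. In OSK against GFP, 3 were higher and 6 lower, with 23.1% and 22.8% of all genes, and in OSK against GSTA4, 4 were higher and 6 lower, with 24.1% and 23.8%. Against WT, 3 genes were higher and 4 lower in GSTA4 (19.7% and 19% of all genes), and 3 were higher and 6 lower in OSK (22.7% in each direction). All but CCN5 have a mean above 10 CPM, and among the 9604 tested genes with a mean of at least 10 CPM the called share was 27.7% for GFP against WT, 36.4% for GSTA4 against GFP, 54.5% for OSK against GFP, 56.4% for OSK against GSTA4, 46.9% for GSTA4 against WT and 53.5% for OSK against WT. The median log2 fold change of the 10 genes was -0.17 for GFP against WT (0.0098 over all genes) and -0.25 for OSK against GFP (-0.019 over all genes). Comparisons that share a group, such as those with GFP, are not independent of each other.

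**Figure D2:**
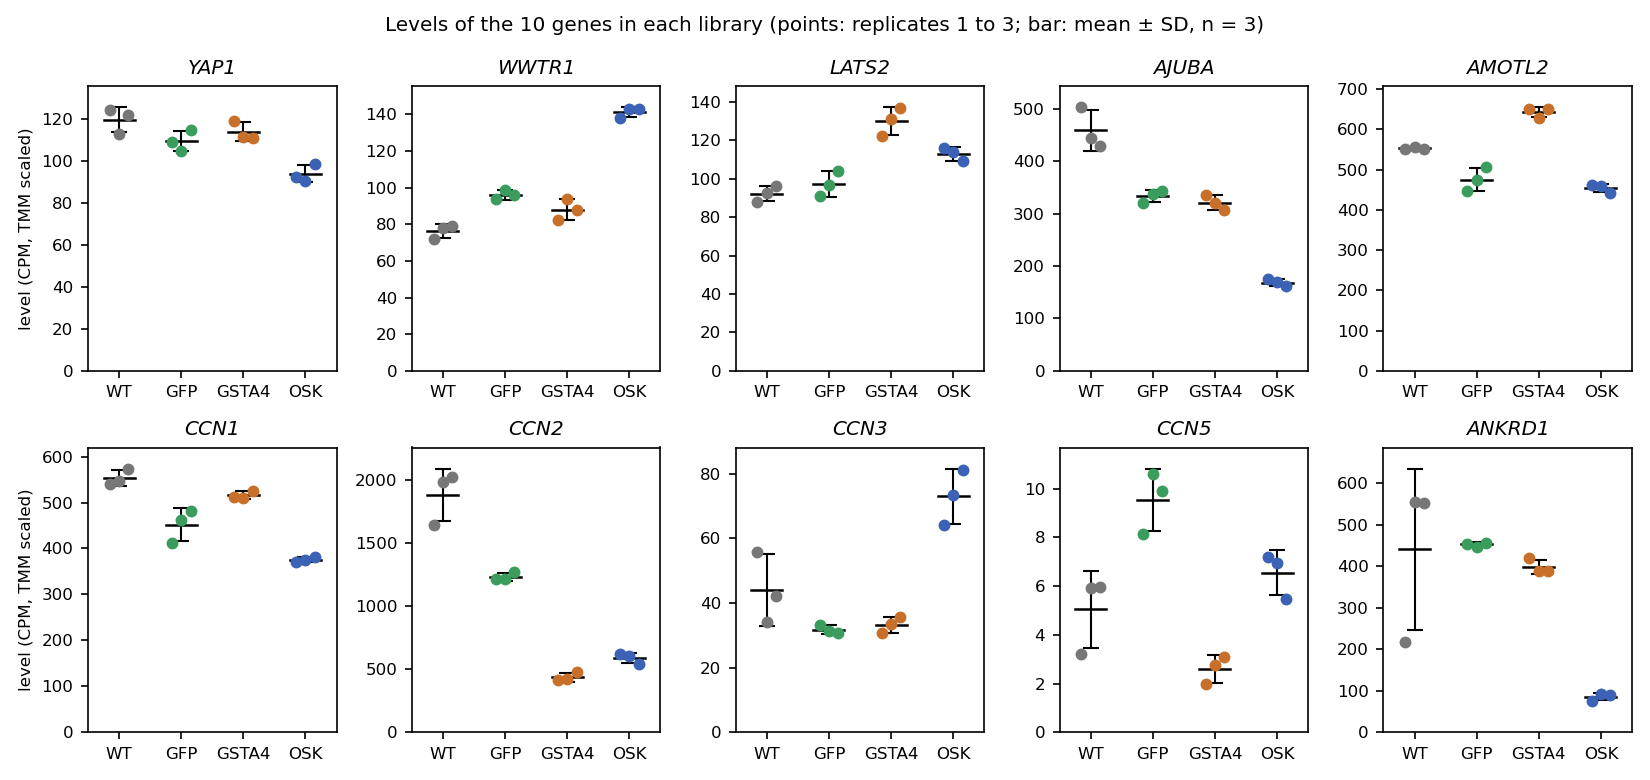
Level of each gene in every library, in CPM after TMM scaling on axes that start at 0; points are the 3 libraries of each group and the bar and whiskers are the mean ± SD (n = 3). CCN2 falls from a mean of 1883 in WT to 437 in GSTA4, ANKRD1 lies between 75.7 and 93.4 in the OSK libraries, and the lone low WT point of ANKRD1, at 217, is replicate 1.

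The coactivators moved in opposite directions in OSK cells: WWTR1 was higher and YAP1 lower than in the GFP line. WWTR1 stood at 138, 143 and 143 CPM in the OSK libraries, against 93.6, 98.6 and 95.9 in GFP, 82.6, 93.8 and 87.7 in GSTA4 and 71.8, 78.0 and 79.3 in WT. The 3 OSK libraries lay above all 9 others. The rise over GFP was 0.56 (log2, SE 0.0619, adjusted p = 2.74e-07, edgeR quasi-likelihood test with Benjamini-Hochberg adjustment, as for all adjusted p-values here), or 1.47-fold. GFP was also above WT by 0.33 (SE 0.0631, adjusted p = 0.00088). GSTA4 missed the threshold against GFP (-0.13, SE 0.0628, adjusted p = 0.141), and its call against WT (0.20, adjusted p = 0.0147) was lost without WT replicate 1 (adjusted p = 0.0707) and without GSTA4 replicate 2 (adjusted p = 0.0986).

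YAP1 moved little. It read 92.4, 90.7 and 98.4 CPM in OSK, 109, 105 and 115 in GFP, 119, 111.3 and 111.1 in GSTA4 and 124, 113 and 122 in WT. The OSK libraries were the lowest without overlap, while those of the other 3 groups overlapped. OSK was lower than GFP (log2 -0.22, SE 0.0621, adjusted p = 0.00561), and neither GFP against WT (-0.13, adjusted p = 0.146) nor GSTA4 against GFP (0.06, adjusted p = 0.547) passed the threshold. The reads of WWTR1 per read of YAP1 were 0.640 ± 0.0567 for WT (SD, n = 3), 0.878 ± 0.0547 for GFP, 0.775 ± 0.0757 for GSTA4 and 1.51 ± 0.0636 for OSK, a ratio within each library that is not corrected for transcript length. Per kilobase of exon, YAP1 stayed above WWTR1 in WT (19.0 against 9.08 CPM per kb), whereas in OSK WWTR1 was at 16.8 and YAP1 at 14.9. In GENCODE 29 on GRCh38, YAP1 spans chr11:102110461-102233423 and WWTR1 chr3:149517235-149736714, and an antisense gene overlaps 9.98% of the exon bases of YAP1 and 9.45% of those of WWTR1. The strand setting of the counting is not given in the sources used here, so antisense reads cannot be told apart from theirs.

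LATS2, the kinase that phosphorylates YAP and TAZ, was highest in GSTA4. Its GSTA4 libraries read 122, 131 and 137 CPM, against 116, 114 and 109 in OSK, 90.8, 96.6 and 104 in GFP and 88.1, 92.5 and 96.2 in WT. All GSTA4 libraries lay above those of the other groups, and those of WT and GFP overlapped. GSTA4 was above GFP by 0.42 (SE 0.0649, adjusted p = 4.77e-05) and above WT by 0.49 (SE 0.0648, adjusted p = 4.26e-06). OSK was above GFP by 0.22 (adjusted p = 0.00987), a call lost without GFP replicate 1 (0.17, adjusted p = 0.0516), and below GSTA4 (-0.20, adjusted p = 0.0132), a call lost without GSTA4 replicate 3 (adjusted p = 0.0809) or OSK replicate 3 (adjusted p = 0.0769). LATS2 lies at chr13:20973032-21061547.

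AJUBA, a LIM-domain scaffold that binds LATS kinases and restrains them, fell in steps. Its WT libraries read 503, 443 and 429 CPM, those of GFP 320, 337 and 344, those of GSTA4 335, 319 and 307 and those of OSK 174, 169 and 161. The OSK and WT libraries overlapped with no other group, while GFP and GSTA4 overlapped. OSK fell 1.98-fold below GFP (-0.99 on the log2 scale, SE 0.0658, adjusted p = 1.28e-10), GFP fell below WT (-0.46, SE 0.0644, adjusted p = 4.13e-05), and GSTA4 against GFP did not pass (-0.06, SE 0.0646, adjusted p = 0.559).

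AMOTL2, an angiomotin-like scaffold that binds YAP at cell junctions, was highest in GSTA4. It read 649.9, 629 and 651 CPM there, against 551, 556 and 552 in WT, 447, 473.5 and 506 in GFP and 461, 459 and 443 in OSK. GSTA4 was the highest group without overlap, while GFP and OSK overlapped. The rise over GFP was 0.44 (SE 0.0567, adjusted p = 5.68e-06). GFP was below WT (-0.22, adjusted p = 0.00936), and in OSK against GFP the value was -0.07 (adjusted p = 0.36), which became -0.14 (adjusted p = 0.0287) when libraries were scaled by their totals alone. Against the scaffold AJUBA, the reads of AMOTL2 per read of AJUBA were 1.21 ± 0.103 for WT, 1.43 ± 0.0406 for GFP, 2.01 ± 0.0964 for GSTA4 and 2.7004 ± 0.0519 for OSK (SD, n = 3), with no overlap between groups. AJUBA lies at chr14:22971174-22982642 and AMOTL2 at chr3:134355874-134375479.

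CCN2, also called CTGF, which encodes a matrix protein linked to fibrosis, was the most abundant of the 10 genes per kilobase of exon in WT, GFP and OSK, and fell in both GSTA4 and OSK. The WT libraries read 1642, 1984 and 2023 CPM, those of GFP 1213, 1215 and 1270.5, those of OSK 623, 604 and 542 and those of GSTA4 415, 419.9 and 476. No library of 1 group entered the range of another. Against GFP, CCN2 was 2.82-fold lower in GSTA4 (-1.50 on the log2 scale, SE 0.0798, adjusted p = 1.11e-11) and 2.09-fold lower in OSK (-1.06, SE 0.0789, adjusted p = 6.51e-10). GFP was itself below WT (-0.61, SE 0.078, adjusted p = 1.51e-05), so that the drop from WT to GSTA4 was 4.31-fold, and OSK stood above GSTA4 (0.43, SE 0.0786, adjusted p = 0.000108). In bulk RNA, fewer cells with a transcript and less of it per cell cannot be told apart. Per kilobase of exon its level was 805 CPM per kb in WT, then 527 for GFP, 252 for OSK and 187 for GSTA4, and in GSTA4 it came after CCN1 (210) and ANKRD1 (202). CCN2 lies at chr6:131948176-131951373, where an antisense gene overlaps 8.34% of its exon bases.

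CCN1, also called CYR61, the closest relative of CCN2 in use as a YAP and TAZ readout, fell with it in OSK and in GFP against WT, but not in GSTA4. It stood at 540, 547 and 574 CPM in WT, 513, 511 and 525 in GSTA4, 412, 462 and 482 in GFP and 371, 374 and 381 in OSK. The OSK libraries were the lowest without overlap, and the GSTA4 libraries all lay above those of GFP. OSK was below GFP (-0.27, SE 0.0607, adjusted p = 0.00112) and GFP below WT (-0.29, SE 0.0605, adjusted p = 0.00172). In GSTA4 against GFP, where CCN2 fell, CCN1 was above by 0.19 (SE 0.0605, adjusted p = 0.0215), a call that was lost without GFP replicate 1 (0.13, adjusted p = 0.0975) and without GSTA4 replicate 3 (0.18, adjusted p = 0.0733).

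Read against each other within a library, the CCN2 to CCN1 ratio separated the groups. It was 3.04, 3.62 and 3.53 in WT, 2.95, 2.63 and 2.63 in GFP, 1.68, 1.61 and 1.42 in OSK and 0.809, 0.823 and 0.905 in GSTA4, with means of 3.40 ± 0.313, 2.74 ± 0.182, 1.57 ± 0.133 and 0.846 ± 0.0521 (SD, n = 3). The groups did not overlap, and in GSTA4 alone did CCN1 have more reads than CCN2. CCN1 lies at chr1:85580761-85583962.

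ANKRD1, which encodes an ankyrin-repeat protein of muscle and stretched cells, was lower in OSK by the largest step of any of the 10 genes against GFP. It read 75.7, 93.4 and 89.8 CPM in OSK, against 455, 447 and 456 in GFP, 419, 389.6 and 388 in GSTA4 and 217, 554 and 552 in WT. The OSK libraries were far below all others, and WT replicate 1 lay between OSK and the rest. OSK was 5.24-fold lower than GFP (-2.39 on the log2 scale, SE 0.214, adjusted p = 1.14e-08) and lower than GSTA4 (-2.21, SE 0.213, adjusted p = 2.63e-08). GSTA4 against GFP gave -0.18 (SE 0.199, adjusted p = 0.536) although their libraries did not overlap.

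WT replicate 1 decided several values of ANKRD1. Without it, GSTA4 against GFP was -0.18 with an adjusted p of 0.02, GFP against WT turned from 0.04 (adjusted p = 0.92) to -0.29 (adjusted p = 0.00191), and GSTA4 against WT went from -0.15 (adjusted p = 0.6) to -0.47 (adjusted p = 8.36e-07). The fall in OSK passed under all 19 alternatives, with log2 fold changes against GFP from -2.46 to -2.29. The reads of ANKRD1 per read of CCN1 were 1.01 ± 0.0864 in GFP, 0.773 ± 0.0403 in GSTA4 and 0.230 ± 0.0234 in OSK (SD, n = 3), and 0.403, 1.01 and 0.963 in the WT libraries. ANKRD1 lies at chr10:90912096-90921276.

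**Figure D3:**
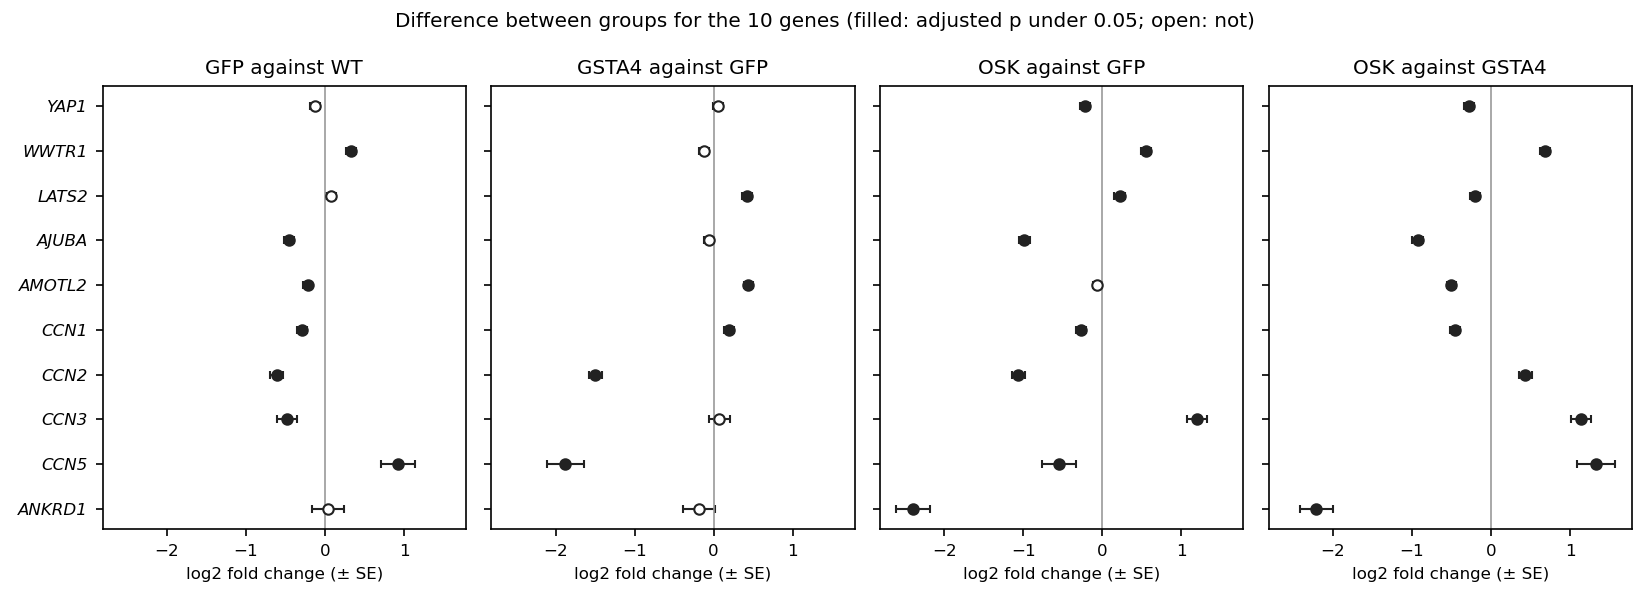
Log2 fold change ± SE of each gene in 4 comparisons; filled points have an edgeR adjusted p under 0.05 and open points do not. CCN2 is far to the left in both GSTA4 and OSK against GFP (-1.50 and -1.06). CCN5 lies further left than CCN2 in GSTA4 against GFP (-1.88), and AJUBA lies close to CCN2 in OSK against GFP (-0.99). ANKRD1 is far to the left in OSK alone (-2.39), and WWTR1, CCN3 and LATS2 are to the right in OSK against GFP.

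CCN3, also called NOV, a CCN protein often described as opposing CCN2, rose in OSK. Its libraries read 64.1, 73.5 and 81.3 CPM in OSK, 33.3, 31.3 and 30.7 in GFP, 30.8, 33.5 and 35.6 in GSTA4 and 55.9, 34.1 and 42.1 in WT. OSK lay above all other libraries, with WT replicate 1 the nearest. The rise over GFP was 2.3-fold (1.202 on the log2 scale, SE 0.127, adjusted p = 1.3e-07), and over GSTA4 1.13 (SE 0.126, adjusted p = 2.1e-07). GSTA4 against GFP was 0.07 (SE 0.132, adjusted p = 0.738). The lower levels than WT in GFP (-0.48, adjusted p = 0.0116) and GSTA4 (-0.41, adjusted p = 0.0156) were both lost without WT replicate 1 (-0.27, adjusted p = 0.0675, and -0.20, adjusted p = 0.132), and the latter also without GSTA4 replicate 1 (adjusted p = 0.071).

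CCN5, also called WISP2, a CCN protein that lacks the C-terminal domain of the others, was the scarcest of the 10 genes. It read 8.13, 10.6 and 9.91 CPM in GFP, 7.18, 6.95 and 5.48 in OSK, 3.23, 5.94 and 5.95 in WT and 1.97, 2.77 and 3.09 in GSTA4. GSTA4 lay below every other library and GFP above every other library, while WT and OSK overlapped. GSTA4 was 3.67-fold lower than GFP (-1.88 on the log2 scale, SE 0.238, adjusted p = 4.02e-06), and GFP was above WT by 0.93 (SE 0.217, adjusted p = 0.00456). The lower level in OSK than in GFP (-0.55, SE 0.213, adjusted p = 0.0416) was lost without GFP replicate 2 (adjusted p = 0.14), GFP replicate 3 (0.0981), OSK replicate 1 (0.056), OSK replicate 2 (0.0675) or OSK replicate 3 (0.156). The other CCN genes, CCN4 and CCN6, had at most 3 reads in any library. The group with the highest mean was WT for CCN1 and CCN2, OSK for CCN3 and GFP for CCN5. CCN5 lies at chr20:44714844-44728509.

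Likeness was measured by the root mean square difference of log2 CPM profiles over the 12 libraries, each centred on its own mean. CCN5, with a mean under 10 CPM, was left out of these pairs. The closest pair among the other members was YAP1 and CCN1 (0.111), then CCN1 and AMOTL2 (0.138) and YAP1 and AMOTL2 (0.154). These are genes with narrow spans, whose highest group mean was 1.28 (YAP1), 1.48 (CCN1) and 1.42 (AMOTL2) times the lowest, and a narrow span makes any pair close. The widest spans were 5.25 for ANKRD1, 4.31 for CCN2 and 3.66 for CCN5. The lowest mean was in OSK for ANKRD1 and in GSTA4 for CCN2 and CCN5.

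**Figure D4:**
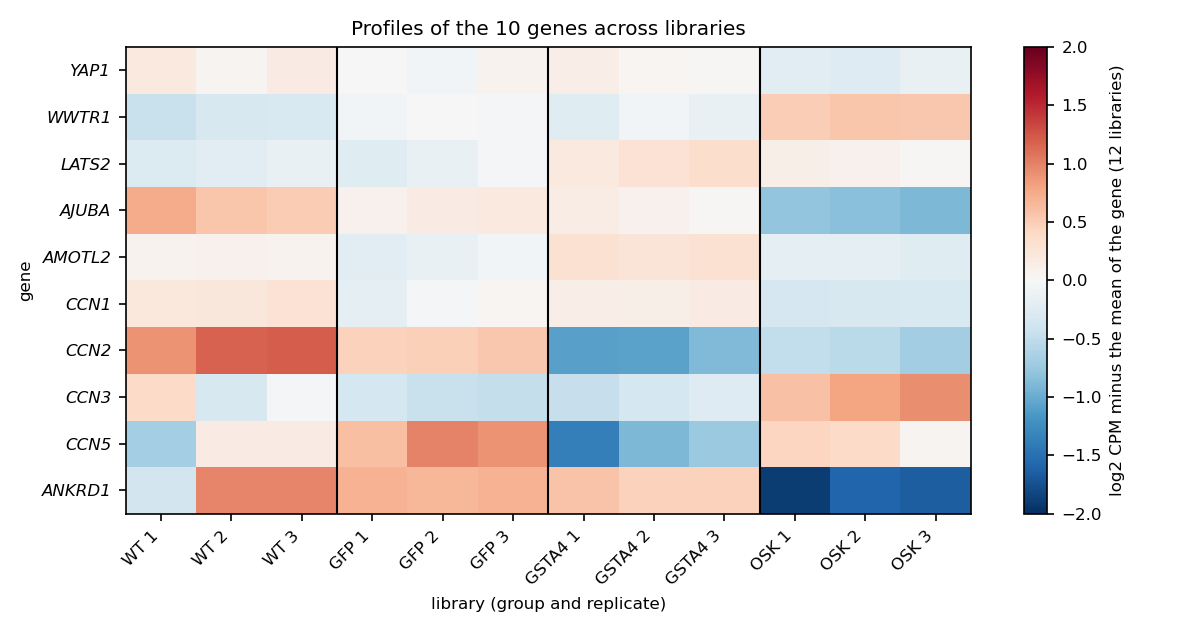
Log2 CPM of each gene in each of the 12 libraries minus the mean of that gene over the 12, with red above and blue below the mean. The columns of OSK are blue for ANKRD1 and AJUBA and red for CCN3 and WWTR1, the columns of GSTA4 and OSK are blue for CCN2, and for ANKRD1 WT replicate 1 is blue (-0.37) where the other WT columns are red (0.98 and 0.97).

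Among 9603 genes with a mean of at least 10 CPM, the profile of CCN2 was most like that of GPX3, a secreted glutathione peroxidase (root mean square difference 0.118), followed by BMF, a BH3-only apoptosis gene (0.161), and IFFO2 (0.204), and the same 3 led when group means were compared. By group means, the genes named for ANKRD1 below ranked 2, 1 and 11, those for CCN3 15, 39 and 27, and those for CCN1 15, 13 and 7, so for CCN1 and CCN3 other genes were closer on that measure. The means of GPX3 were 1480.2 CPM for WT, 1118 for GFP, 375 for GSTA4 and 498 for OSK. The profile of ANKRD1 was most like that of C1orf198 (0.262), of JPH2, a junctophilin (0.297), and of OXTR, the oxytocin receptor (0.300). All of these were also low in OSK, with means of 89.0 CPM for C1orf198, 19.2 for JPH2 and 81.2 for OXTR. OXTR (164 against 360.1 and 376 CPM) and C1orf198 (231 against 340 and 341) shared the low WT replicate 1. For JPH2 that library read 68.0 against 89.2 and 76.8 CPM. The genes most like CCN3 were STS, the steroid sulfatase (0.156), HTRA1, a secreted serine protease (0.164), and TMTC1 (0.168), and those most like CCN1 were NLGN2 (0.0524), MTURN (0.0599) and CCNH (0.065). The genes named for CCN3 shared its high WT replicate 1. It read 44.9 against 34.4 and 35.4 CPM for STS, 115.5 against 81.8 and 81.1 for HTRA1 and 314 against 254 and 251 for TMTC1. All likenesses were measured on the same 12 libraries and in 4 groups, were not repeated without WT replicate 1, and carry no test.

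The DNA-binding partners and their competitors were lower in OSK than in GFP or GSTA4. TEAD1 to TEAD4 bind DNA for YAP and TAZ, and the VGLL proteins compete for the same surface of TEAD. Of 9 tested genes in the list of coactivators, TEAD and VGLL genes, 8 were lower and 1 (WWTR1) higher in OSK than in GFP, with a median log2 fold change of -0.64, where 22.8% of all tested genes were lower and their median was -0.019. Among genes of at least 10 CPM, 54.5% were called in either direction. OSK against GSTA4 gave the same counts, 8 lower and 1 higher. Against WT, 6 were lower and 1 higher, where 22.7% of all tested genes were called in each direction: TEAD1 stood at a mean of 402 CPM in WT and 400.2 in OSK (-0.0065, SE 0.0574, adjusted p = 0.94), and VGLL2 did not pass either (-0.81, SE 0.407, adjusted p = 0.112). TEAD1 read 476, 456 and 488 CPM in GFP and 392, 416 and 393 in OSK (-0.24, SE 0.0574, adjusted p = 0.00168). TEAD4 read 28.0, 31.8 and 32.5 CPM in GFP and 13.0, 15.9 and 14.9 in OSK (-1.08, SE 0.0991, adjusted p = 1.76e-08), and TEAD2 fell by nearly the same amount (-1.07, SE 0.175, adjusted p = 3.97e-05), from a mean of 12.2 to 5.80. VGLL3 fell from 331 to 188 CPM (-0.81, SE 0.0662, adjusted p = 2.83e-09). VGLL1 had no reads in any library.

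In GSTA4 against GFP, 1 of these 9 genes, TEAD2, was lower (-0.55, SE 0.168, adjusted p = 0.0184) and none was higher, and this call was lost without GFP replicate 3 or GSTA4 replicate 2, when the count was 0 in each direction. TEAD1 differed by -0.01 (SE 0.0573, adjusted p = 0.895). In GFP against WT, WWTR1 and TEAD1 (0.24, adjusted p = 0.00587) were higher and TEAD2 lower (-0.87, adjusted p = 0.000454).

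**Figure D5:**
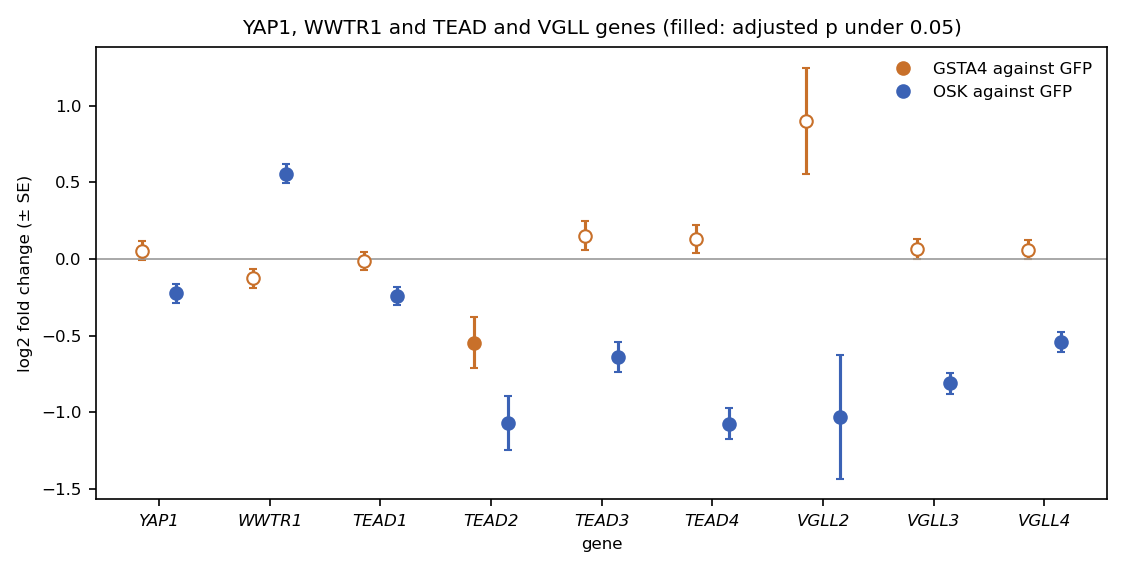
Log2 fold change ± SE against GFP of the coactivators and of the TEAD and VGLL genes tested, for GSTA4 and for OSK; filled points have an edgeR adjusted p under 0.05. In OSK every gene but WWTR1 (0.56) is below 0, down to -1.08 for TEAD4, and in GSTA4 TEAD2 alone is filled.

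The kinase cascade and its upstream regulators were split in direction. Of its 20 genes, 4 were higher and 4 lower in GSTA4 against GFP, and 6 higher and 8 lower in OSK against GFP. That is 8 and 14 of 20 called, where 36.4% and 54.5% of genes of at least 10 CPM were called in either direction, so the counts lie near the background. WWC2, a KIBRA-family scaffold that promotes LATS activation, was lower in both comparisons, at means of 699 CPM in GFP, 383 in GSTA4 (-0.87, adjusted p = 2.23e-10) and 390.1 in OSK (-0.84, adjusted p = 1.39e-10). FRMD6, an upstream membrane scaffold, was lower in both as well (-0.59, adjusted p = 2.27e-05, and -0.62, adjusted p = 4.38e-06). STK4, the kinase upstream of LATS, was higher in both (0.30, adjusted p = 0.00251, and 0.76, adjusted p = 1.54e-08), and TAOK3 was higher in OSK (0.63, adjusted p = 0.000104). NF2, the tumour suppressor merlin, was lower in OSK than in GSTA4 (-0.69, adjusted p = 3.36e-08). These comparisons share the GFP libraries. The counts were not steady to single libraries: the 4 lower genes in GSTA4 became 2 without GSTA4 replicate 2, the 4 higher genes became 2 without GSTA4 replicate 3, and the 8 lower genes in OSK became 5 without GFP replicate 2 or OSK replicate 2.

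Of the 11 scaffolds that hold YAP, TAZ or LATS in the cytoplasm, AJUBA and AMOTL2 included, 3 were higher and 1 lower in GSTA4 against GFP, and 4 higher and 3 lower in OSK against GFP. These 4 and 7 of 11 also lie near the 36.4% and 54.5% of genes of at least 10 CPM that were called. TJP1, the tight-junction protein ZO-1, rose with AMOTL2 in GSTA4 (0.47, adjusted p = 6.61e-06), and AMOTL1 was lower there (-0.24, adjusted p = 0.0051). In OSK, WTIP, a relative of AJUBA, fell by about as much as AJUBA (-1.02, adjusted p = 4.26e-08), while LIMD1, another of that family, rose (0.50, adjusted p = 0.000125).

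The other YAP and TAZ target genes were split in direction against GFP. Of 25 tested, 10 were higher and 7 lower in GSTA4 against GFP, and 10 higher and 11 lower in OSK against GFP, with medians of 0.06 and -0.04 against 0.0082 and -0.019 over all genes. Of all tested genes, 14.7% were higher and 14.6% lower in the former comparison and 23.1% and 22.8% in the latter. Against WT the list leaned upwards: 15 were higher and 7 lower in GSTA4 (median 0.35, with 19.7% and 19% of all genes called), 9 higher and 4 lower in GFP (median 0.21, with 11% and 11.2%), and 11 higher and 9 lower in OSK (median 0.25, with 22.7% each way). The GFP counts became 6 and 5 without WT replicate 1, 10 and 2 without WT replicate 3, and 7 and 2 without GFP replicate 2. In GSTA4, EDN1, the vasoconstrictor endothelin, rose from 2.06 to 9.13 CPM (2.14, SE 0.291, adjusted p = 1.02e-05) and TGFB2, a secreted growth factor, from 115 to 249.1 (1.12, SE 0.0763, adjusted p = 4.78e-10). IGFBP3, a carrier of insulin-like growth factors, fell from 75.9 to 13.7 CPM (-2.47, SE 0.192, adjusted p = 3.33e-09), and GLI2 fell too (-2.20, SE 0.554, adjusted p = 0.00498), at a mean of 0.240 CPM in GSTA4 that is near the floor. In OSK, MYOF, a membrane repair protein, rose from 138 to 742 CPM (2.42, SE 0.109, adjusted p = 2.28e-13) and F3, the tissue factor of coagulation, from 272 to 1078 (1.98, SE 0.0552, adjusted p = 1.1e-16), while THBS1, a matrix protein, fell from 607 to 366 (-0.73, SE 0.107, adjusted p = 1.05e-05). IGFBP3 and TGFB2 went opposite ways between the introduced frames: in OSK against GSTA4, IGFBP3 was higher by 3.40 (adjusted p = 5.26e-12) and TGFB2 lower (-1.60, adjusted p = 5.75e-13).

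Genes of the actin cytoskeleton that SRF and its MRTF cofactors drive are often read beside YAP targets, and CCN1, CCN2 and ANKRD1 are sometimes counted among them. Of 20 tested, 3 were higher and 8 lower in GSTA4 against GFP, and 5 higher and 11 lower in OSK against GFP, with medians of -0.16 and -0.49 against 0.0082 and -0.019 over all genes. The shares of all tested genes were 14.7% higher and 14.6% lower in GSTA4, and 23.1% and 22.8% in OSK. TAGLN, a smooth muscle actin-binding protein, read 106, 124 and 149 CPM in GFP, 8.19, 10.4 and 13.6 in GSTA4 (-3.56, SE 0.284, adjusted p = 5.16e-09) and 29.6, 29.7 and 24.3 in OSK (-2.18, SE 0.253, adjusted p = 5e-07). FILIP1L was higher in GSTA4 (1.53, adjusted p = 2.83e-12) and lower in OSK (-1.38, adjusted p = 1.87e-11). SRF itself was higher in OSK (0.54, adjusted p = 5.19e-05). The 8 lower genes in GSTA4 became 5 without any 1 of the 3 GSTA4 libraries.

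In OSK, CCN2, AJUBA and WWTR1 kept the same direction against WT as against GFP. The log2 fold changes in OSK against WT were -1.67 (adjusted p = 5.24e-13), -1.45 (adjusted p = 2.72e-13) and 0.89 (adjusted p = 2.44e-10). ANKRD1 was lower there too (-2.35, adjusted p = 1.23e-08), CCN3 higher (0.72, adjusted p = 5.67e-05), and CCN5, lower against GFP, did not pass (0.38, adjusted p = 0.177). In GSTA4 against WT, CCN2 gave -2.11 (adjusted p = 5.03e-14) and CCN5 -0.95 (adjusted p = 0.00465), and AMOTL2, LATS2 and WWTR1 were the 3 higher genes. WT and GFP differ from each other, so the choice of reference moved CCN1 in GSTA4 from higher against GFP to -0.10 against WT (adjusted p = 0.196). AJUBA in GSTA4 went from -0.06 against GFP (adjusted p = 0.559) to -0.52 against WT (adjusted p = 2.25e-06). AMOTL2 in OSK went from -0.07 (adjusted p = 0.36) to -0.28 (adjusted p = 0.000336). WWTR1 in GSTA4 changed sign, from -0.13 (adjusted p = 0.141) to 0.20 (adjusted p = 0.0147).

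The proliferation list, which moved with every group, had 17 tested genes. In GFP against WT 17 of them were higher, where 11% of all tested genes were. In OSK against GFP 16 were higher, where 23.1% of all tested genes were. In GSTA4 against GFP 1 was higher and 8 lower, with 14.7% and 14.6% of all tested genes called in those directions. BIRC5, which stands in the list of other YAP and TAZ targets, is also a cell-division gene and followed the proliferation list. Its means were 2.92 CPM for WT, 14.0 for GFP, 11.1 for GSTA4 and 37.9 for OSK.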

How the data were processed

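Poly(A) RNA of 12 ARPE-19 libraries was extracted with TRIzol and prepared with a NEBNext Ultra II kit, per the labels. The authors deposited raw read counts per gene: all values are whole, and totals differ between libraries (12630675 to 17045454). STAR 2.7.1a, featureCounts 1.6.2 and the builds GRCh38, hg38, GRCm38 and mm10 are named, without roles, per the submitters' processing notes. The annotation release and strand setting are not given in the sources used here. Lines with no symbol (0.485% to 0.822% of reads) were left out, and 1272 lines sharing a symbol were kept apart.

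The 4 groups were fitted together without covariates in edgeR 4.0.16 with limma 3.58.1 (R 4.3.3), using TMM scaling, filterByExpr and the quasi-likelihood test, adjusted by Benjamini-Hochberg over the 15179 genes of each comparison at a threshold of 0.05. The procedure was first tested on simulated data, with changes placed in GSTA4 against GFP. It recovered 48.4% of log2 changes of 0.5, 77.6% of those of 1 and 95.8% of those of 2. A gene that did not pass may therefore still differ by a small amount. Alternatives changed the scaling (RLE, or totals only), the filter (none, or 1 CPM on average), the tool (DESeq2 1.42.0), the covariates (a replicate block) and the libraries (each left out, or only the 6 compared). No pair of replicates agreed within sampling noise, and each library was counted as 1 sample. That spread may be technical and does not show that the libraries were separate cultures.

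The 10 genes and all lists were chosen with earlier results of these data known. From the lists, up to 2 of the largest rises and 2 of the largest falls past the threshold were picked per comparison, where they averaged 1 CPM or more. Only some of these picked genes are named in the text. The 3 genes most like each of CCN1, CCN2, CCN3 and ANKRD1 are named as well. Further TEAD, VGLL and marker values were named after they were seen. Locations and exon lengths come from GENCODE 29, matched by the Ensembl gene identifier of each symbol.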

Additional observations from a re-analysis of the deposited data

How the results depend on the processing

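The counts of the 10 genes past the threshold stayed within 1.5 times their reported values under every alternative run: 6 to 7 for GFP against WT, 4 to 6 for GSTA4 against GFP, 8 to 10 for OSK against GFP, 9 to 10 for OSK against GSTA4, 6 to 7 for GSTA4 against WT, and 9 throughout for OSK against WT. Of 1140 values of a gene in a comparison under an alternative, 1118 kept their side of the threshold, 17 lost the call, 4 gained it, and 1 reversed. A reversal was counted only where the value was called in the main fit or in the alternative. The 1118 therefore include changes of sign between values that were not called. One such case was ANKRD1 in GSTA4 against WT, which ranged from -0.47 to 0.05. The counted reversal was ANKRD1 in GFP against WT. It went from 0.04 to -0.29 (edgeR adjusted p = 0.00191) without WT replicate 1 and ranged from -0.29 to 0.23 as each library was left out. AMOTL2 in GFP against WT missed the threshold when only the 6 libraries compared were fitted (-0.21, adjusted p = 0.0545), where fewer libraries estimate the spread, and WWTR1 in GSTA4 against WT missed it with no filter on low counts (0.20, adjusted p = 0.0592), where more genes are tested.

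With libraries scaled by their totals alone, 2782 genes were higher and 4167 lower in OSK against GFP, in place of 3508 and 3454, a share of higher calls of 40% in place of 50.4%, and the median of all genes stood at -0.09. The counts of the 10 genes there are within the ranges above.

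Replicate numbers are shared by the 4 groups, but nothing in the labels ties them to a batch. With the replicate number as a block, the counts of the 10 genes were 7, 5, 9 and 10 in the first 4 comparisons above, as without it. The count of all genes went from 6962 to 7270 in OSK against GFP and from 3369 to 3779 in GFP against WT. Of 18 same-number pairs, 3 had a correlation of deviations over 0.1 (from -0.0193 to 0.153 over all pairs). The 3 were the replicate 1 pairs of WT with GFP, GSTA4 and OSK (0.153, 0.12 and 0.106). Of 12 libraries, 6 were closest to their own number. Whether libraries of the same number share more than the number was not tested. Depth limits CCN5 most, the scarcest of the 10 genes.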
